A study of Mus musculus with 3 samples.

Results

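The miRNAs miR-451, miR-144 and miR-486, which are abundant in red blood cells, were followed in pooled serum of mice with 4T1 mammary tumours that did or did not carry the Tn antigen, a truncated O-glycan. The 3 miRNAs were chosen by exact probe name from the 566 probes listed for a NanoString nCounter mouse panel, which counts fluorescent barcodes bound to each miRNA. The labels give the panel as 527 mouse miRNAs, and the difference from 566 is not explained there. The groups compared were 2 pools of serum from mice bearing Tn+ tumours and 1 pool from mice bearing Tn- tumours. Tn+ cells were 4T1 cells edited with CRISPR/Cas9 in exon 2 of Cosmc, the chaperone that extension of O-glycans needs, and the Tn- pool is labelled only by its tumour status. 4T1 is an established mouse line used as a model of triple-negative breast cancer. The labels do not say whether the edited line is 1 clone. All mice were female BALB/c animals of 6 to 8 weeks implanted with 100000 cells in the mammary fat pad, and serum dates from sacrifice on day 28. The number of mice behind each pool, and whether the Tn+ pools held different mice, is not stated, so the spread between the Tn+ pools may be technical. Cosmc is not on the panel, so the edit could not be checked.

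Red cells carry large amounts of miR-451 and miR-486 in blood, and both miRNAs reach serum when red cells lyse or shed vesicles. miR-144 and miR-451 are made from 1 primary transcript under the control of the erythroid factor GATA1, and mice without this pair of miRNAs have impaired red cell maturation and poor protection against oxidative stress. miR-451 is the known exception to Dicer processing, since its short hairpin is cut by Argonaute 2, while miR-144 is cut by Dicer in the usual way. miR-486 lies in an intron of the ankyrin gene Ank1 and is expressed in erythroid and muscle cells.

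Mature sequences from RefSeq (GRCm38.p6) were found for 2 of the 3 miRNAs and are shown 5′ to 3′ with the seed, bases 2 to 8, in capitals, because the seed sets which transcripts each can bind.
miR-451a: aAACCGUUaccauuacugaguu
miR-144-3p: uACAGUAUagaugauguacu
The seeds of these neighbours differ, and neither was found in any other of the 1738 mature sequences of the table. The probe name miR-144 gives no arm, and the unqualified name is conventionally used for the 3p arm. The Mir144 hairpin lies on the plus strand at chr11:78073005-78073070 and the Mir451a hairpin on the same strand at chr11:78073170-78073241, with 99 bases between them. The hairpins are shown with the mature miRNA in capitals, because its place in the stem is where their processing differs.
Mir144: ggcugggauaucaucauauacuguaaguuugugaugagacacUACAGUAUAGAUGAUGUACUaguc
Mir451a: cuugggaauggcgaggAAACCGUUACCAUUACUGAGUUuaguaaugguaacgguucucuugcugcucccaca
In the predicted fold of the Mir451a hairpin, mature miR-451a covered bases 17 to 38 of 72 and ran through the whole loop of 4 bases, from base 35 to 38. In the 66-base Mir144 hairpin, miR-144-3p began at base 43, after a loop that ended at base 36. RefSeq also lists Mir451b at the same place on the opposite strand, and Mir3107, also called mir-486b, inside Mir486 within Ank1. The miR-486 probe cannot be assigned to 1 of these 2 overlapping genes here.

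The deposited value is a normalized signal, given below in units, with a lowest value (the floor) shared by many probes of a pool. Low values lay on a grid whose step, 0.896 and 1.09 units for the Tn+ pools (1 and 2) and 1.08 for Tn- serum, gives the finest difference that can be seen. The summed signal was 59444 and 31977 units in the Tn+ pools, against 4204 units in the Tn- pool, and 228, 150 and 85 probes lay above the floor. The levels of the 3 members are therefore also given as shares or ratios within a pool, from which its scale cancels, while units of other probes follow the totals.

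As deposited, all 3 miRNAs had more signal in both Tn+ pools than in the Tn- pool, although 1 Tn+ pool of miR-451 and of miR-486 turned lower once totals were made equal. miR-144 was the 1 member at the floor in Tn- serum. miR-451, which is needed for late red cell maturation, had 43043 and 13159 units in the Tn+ pools, against 1856 units in the Tn- pool. It was the highest probe of all 3 pools, and its Tn+ values lay 23.2-fold and 7.09-fold above the Tn- value. The next highest probe that is no member was miR-16 in Tn+ pool 1, miR-25 in Tn+ pool 2 and miR-1224 in the Tn- pool, and miR-451 exceeded it 16.5-fold, 2.39-fold and 4.11-fold in signal.

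miR-486 had 1058 and 2268 units in the Tn+ pools, against 98.6 units in the Tn- pool. The Tn- value corresponds to about 91.5 grid steps, so it was measured well above the floor. The Tn+ pools lay 10.7-fold and 23.0-fold above it, with the larger excess in pool 2, the reverse of miR-451. miR-486 ranked 6th and 4th in the Tn+ pools, against 7th in the Tn- pool.

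miR-144, which in human erythroid cells restrains the antioxidant factor NRF2, had 477 and 171 units in the Tn+ pools, against 1.08 units, the floor, in the Tn- pool. It ranked 10th and 14th in the Tn+ pools and was not told apart from background in the Tn- pool. Set against 3 grid steps of the Tn- pool (3.23 units), the Tn+ signals were 148-fold and 53.0-fold higher, which is no lower limit because any background removed before deposit is unknown. Other high probes also had the floor value there, such as let-7i with 168 and 213 units and let-7b with 93.0 and 249 units in the Tn+ pools. Among the 39 probes with 20 units or more in both Tn+ pools, 10 (25.6%) had the floor value in Tn- serum, so a floor value there was not restricted to miR-144.

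**Figure D1:**
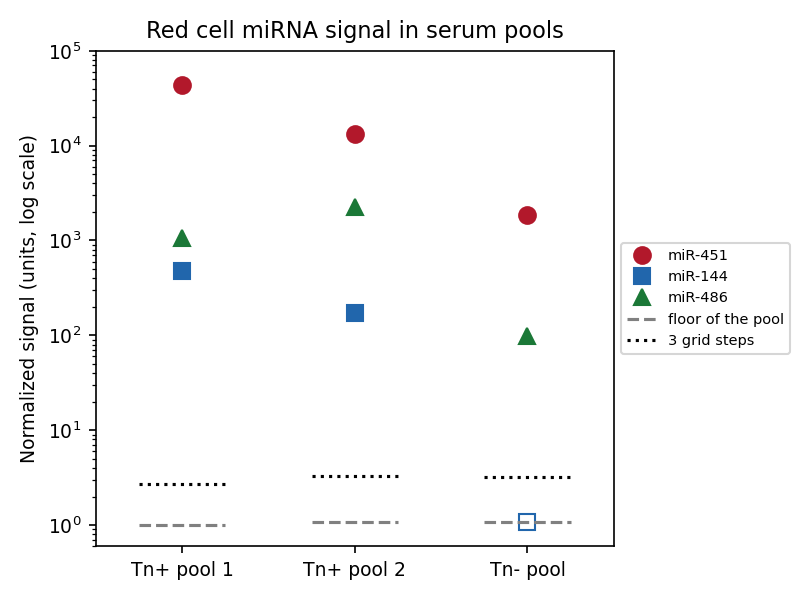
Normalized signal (log axis, units) of miR-451 (circles), miR-144 (squares) and miR-486 (triangles) in the 2 Tn+ pools and the Tn- pool. Dashed lines mark the floor and dotted lines 3 grid steps of each pool. The open square shows miR-144 at the floor in the Tn- pool, against 477 and 171 units in the Tn+ pools.

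The Tn+ pools ordered these miRNAs differently. Signal in Tn+ pool 1 was 3.27-fold that of Tn+ pool 2 for miR-451 and 2.78-fold for miR-144, the 2 miRNAs of 1 transcript. For miR-486 it was 0.467-fold, so that pool 2 was 2.14-fold higher. Over the 126 probes above the floor in both Tn+ pools the median log2 ratio of pool 1 to pool 2 was -0.12, and 65 of them were at least 2-fold apart. The ratio of pool 1 to pool 2 was larger than that of miR-451 for 16 of the 126, and larger than that of miR-144 for 21.

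Expressed as a share of the signal of its own pool, miR-451 did not separate the groups. It took 72.4% and 41.2% of the signal in the Tn+ pools, against 44.1% in the Tn- pool, which lay between them. miR-486 took 1.78% and 7.09% in the Tn+ pools, against 2.34% in the Tn- pool, again between them but with the Tn+ pools in the opposite order. miR-144 took 0.803% and 0.536% in the Tn+ pools, both above the 0.0257% of the Tn- pool and above the 0.0769% that 3 grid steps would make there.

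The 3 miRNAs together made up 75.0% and 48.8% of the signal in the Tn+ pools, against 46.5% in the Tn- pool. miR-451 was the largest part in each pool, and miR-486 made up most of the rest in each. Because miR-451 weighs so heavily on each total, the shares of the others were also taken with it left out. miR-144 then made up 2.91% and 0.911% in the Tn+ pools, against 0.0460% in Tn- serum, while miR-486 made up 6.45% and 12.1% in the Tn+ pools, against 4.20% in the Tn- pool. On that basis both Tn+ pools lay above the Tn- pool for miR-486 as well. With 2 pools against 1 there are 3 arrangements, so an exact permutation test of a share or ratio cannot give a p below 0.333, and none was used.

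**Figure D2:**
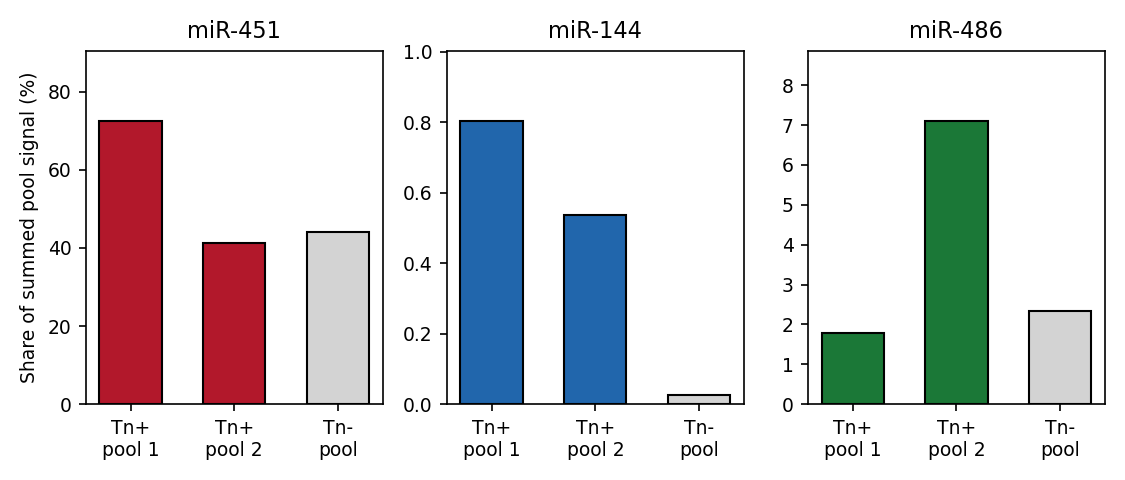
Share of summed pool signal (%) of miR-451, miR-144 and miR-486, 1 panel each with its own axis from 0. Coloured bars are the Tn+ pools and grey bars the Tn- pool, 1 value per pool. The Tn- bar lies between the Tn+ bars for miR-451 and miR-486 and below both for miR-144.

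The ratio of miR-144 to miR-451 compares the 2 products of 1 transcript and does not depend on how a pool was scaled. Probes differ in efficiency, so a ratio is compared between pools and not read as a molar ratio. miR-144 had 1.11% and 1.30% of the miR-451 signal in the Tn+ pools, against 0.0582% in Tn- serum. The Tn+ pools differed from each other 1.18-fold in this ratio, although their miR-451 signals differed 3.27-fold. With miR-144 set to 3 grid steps, the Tn- ratio was 0.174%, and the Tn+ ratios were 6.36-fold and 7.48-fold higher. At the ratios of Tn+ pool 1 and pool 2, the 1856 units of miR-451 in the Tn- pool would go with 20.6 and 24.2 units of miR-144, or 19.1 and 22.4 grid steps, whereas the floor was recorded. Adding 10 units to both signals, for a background of unknown size, gave 1.13% and 1.38% in the Tn+ pools, against 0.594% in the Tn- pool, which reduced the excess to 1.91-fold and 2.32-fold.

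The ratio of miR-486 to miR-451, miRNAs from separate loci, behaved otherwise. miR-486 had 2.46% and 17.2% of the miR-451 signal in the Tn+ pools, against 5.31% in the Tn- pool. The Tn+ pools thus differed from each other 7.01-fold, and the Tn- pool lay 2.16-fold above pool 1 and 3.25-fold below pool 2. The groups overlapped, and the mean Tn+ ratio of 9.85% ± 10.4 (SD, n = 2) had a spread larger than its distance to the Tn- value. miR-144 relative to miR-486 was 45.1% and 7.56% in the Tn+ pools, against 1.10% in the Tn- pool or 3.28% at 3 grid steps, over which Tn+ pool 2 was 2.30-fold higher.

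**Figure D3:**
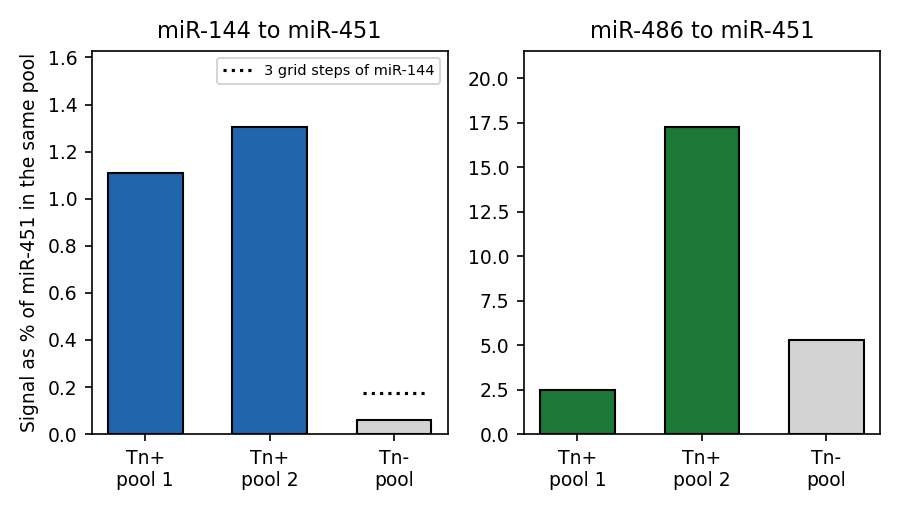
Signal of miR-144 (left) and miR-486 (right) as a percentage of miR-451 in the same pool, with axes from 0. Coloured bars are the Tn+ pools and grey bars the Tn- pool. The dotted line gives the Tn- ratio with miR-144 at 3 grid steps, 0.174%, which is still below the 1.11% and 1.30% of the Tn+ pools, while for miR-486 the Tn- bar lies between the Tn+ bars.

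Serum miR-451 is often set against miR-23a, which changes little when red cells lyse, as an index of haemolysis. The value for miR-451 was 110 and 66.2 in the Tn+ pools, against 119 in the Tn- pool, the highest of these ratios as deposited. The Tn- signal of miR-23a was only 15.6 units, so this order could change with a background of unknown size. No background was added for this ratio. The corresponding ratio of miR-486 to miR-23a was 2.69 and 11.4 in the Tn+ pools, against 6.33 in the Tn- pool. That of miR-144 was 1.21 and 0.863 in the Tn+ pools, against 0.0693 in the Tn- pool or 0.207 at 3 grid steps. Against miR-16, another abundant red cell miRNA, miR-144 stood at 18.3% and 11.4% in the Tn+ pools, against 0.613% in the Tn- pool, or 1.84% at 3 grid steps. For miR-144 the Tn+ pools were thus above the Tn- pool against miR-451, miR-486, miR-23a and miR-16, as deposited and at 3 grid steps. All of these comparisons reuse 1 floor value of miR-144 in 1 Tn- pool, so they are not independent. A background was added only for the ratio to miR-451. Whether the order against miR-486, miR-23a and miR-16 would hold with a background added was not tested. In serum, more lysed or shedding red cells and more miRNA per cell cannot be told apart, and the part of haemolysis in these levels was not tested.

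Group differences were tested with limma, fitted to log2(signal + 1) of the 566 probes, with the Tn- pool assumed to vary like the Tn+ pools. The log2 ratio of Tn+ to Tn- serum was 7.11 for miR-144 (SE 0.84, limma adjusted p = 0.243; 7.92 and 4.75 with pseudocounts of 0.1 and 10, because its Tn- value is the floor), 3.96 for miR-486 (SE 0.63, limma adjusted p = 0.277) and 3.68 for miR-451 (SE 0.97, limma adjusted p = 0.431). No member passed the adjusted threshold of 0.05, and nor did any other probe (0% called). Their unadjusted limma p-values were 0.00773, 0.0157 and 0.0472, and 9.89% of all probes were higher in Tn+ serum with an unadjusted p under 0.05. The median log2 ratio over all probes was -0.02, since 307 of the 566 were at the floor in every pool.

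By size alone, all 3 members exceeded the Tn- pool at least 2-fold in each Tn+ pool, on signal + 1. The same held for 12% of all 566 probes (8.3% with floor values at 3 grid steps), for 26.3% of those above the floor in some pool and for 75.9% of the 58 probes with a mean of 10 units or more, so for well-measured miRNAs this was the usual outcome. With limma restricted to the 259 probes above the floor in some pool, a filter that passes probes high in a single group, the adjusted p was 5.59e-07 for miR-144, 0.0103 for miR-486 and 0.0192 for miR-451, and 11.2% of these probes were called higher. Over the 58 probes with a mean of 10 units or more limma again called all 3 members, but also 55.2% of the probes. In each of these restricted fits the SE was 1 value shared by all probes (1.15 and 1.34) and not the spread of the single miRNA. The calls of the 3 miRNAs thus depended on which probes entered the fit.

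**Figure D4:**
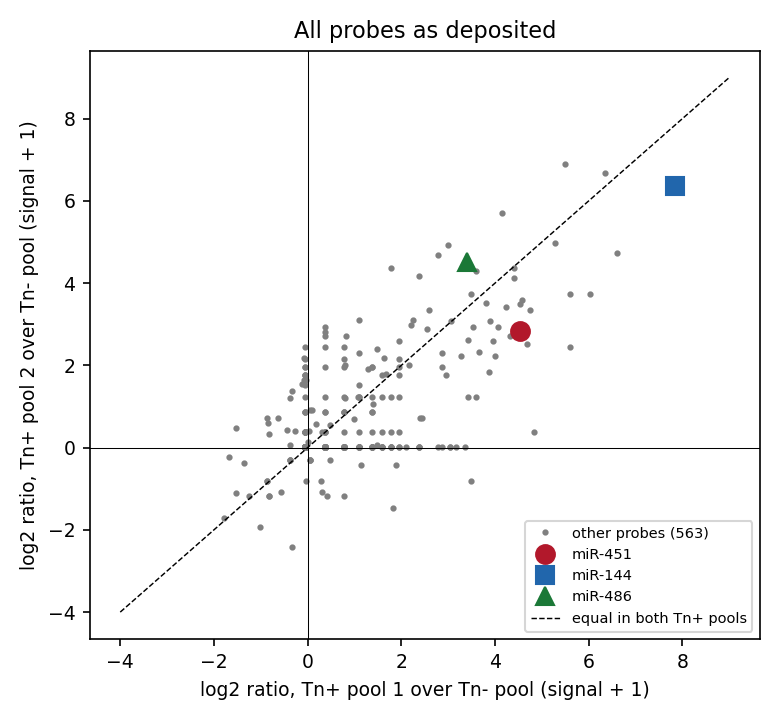
Log2 ratio to the Tn- pool (signal + 1) of Tn+ pool 1 (horizontal) and Tn+ pool 2 (vertical) for all 566 probes as deposited. Grey points are the other probes, the dashed line marks equal ratios in both Tn+ pools. miR-451 and miR-144 lie on the pool 1 side of the line and miR-486 on the pool 2 side.

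The difference in total signal between the pools sets the size of these ratios, so the pools were also scaled to each other in 4 ways. Median-of-ratios scaling over the 60 probes measured above the floor throughout took 1.67 off the log2 ratio of Tn+ to Tn- signal, equal geometric means of the 100 highest probes took off 2.60, equal totals without miR-451 took off 2.90 and equal totals took off 3.37. miR-144 was higher in both Tn+ pools under all 4, with a log2 ratio of 5.87, 5.11, 4.84 and 4.43 in that order. For miR-486 the log2 ratio was 2.30, 1.37, 1.07 and 0.60, and Tn+ pool 1 turned lower than the Tn- pool with equal totals (-0.40). For miR-451 it was 2.01, 1.08, 0.78 and 0.31, and Tn+ pool 2 turned lower with equal totals without miR-451 (-0.18) and with equal totals (-0.10). At least 2-fold higher signal in both Tn+ pools was kept by 3 members after median-of-ratios scaling (5.83% of all probes). It was kept by miR-144 alone with the 100 highest probes (3.18%), with equal totals without miR-451 (2.3%) and with equal totals (1.77%). Restricted to the 58 probes averaging at least 10 units, a filter that miR-144 passes through its Tn+ signal alone, limma called miR-144 with equal totals without miR-451 (1.72% of these probes, adjusted p = 0.0334) and no member under the other scalings, where 0% of probes were called.

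**Figure D5:**
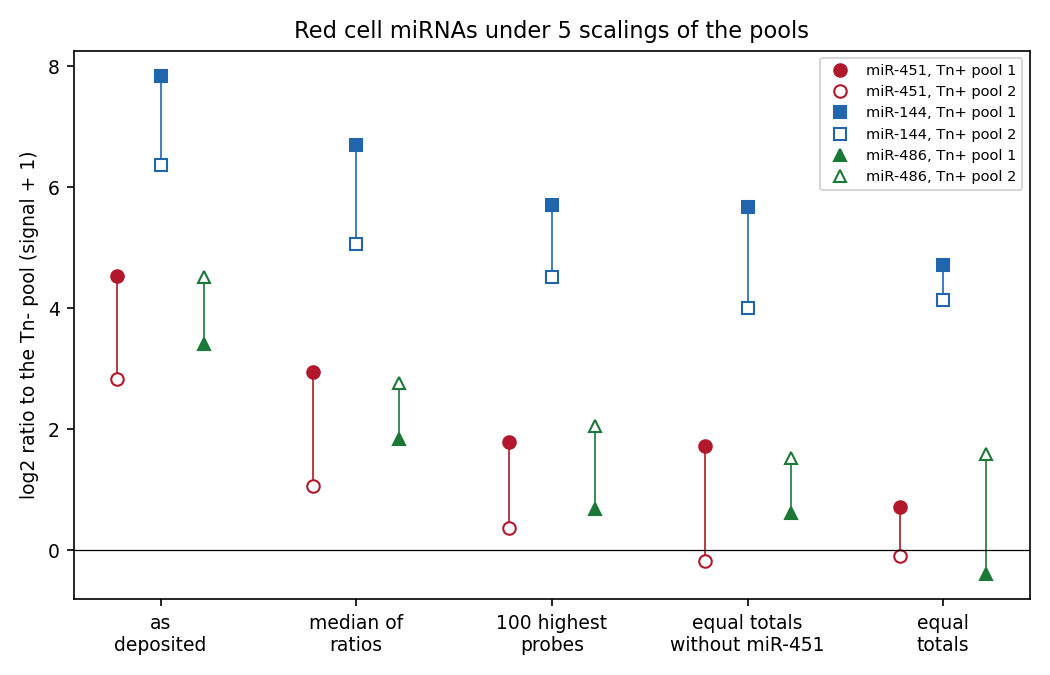
Log2 ratio to the Tn- pool (signal + 1) of miR-451, miR-144 and miR-486 as deposited and under 4 scalings. Filled symbols are Tn+ pool 1, open symbols Tn+ pool 2, and lines join the pools. miR-144 stays above 0 in both pools throughout, while 1 Tn+ pool of miR-451 and of miR-486 falls under 0 with equal totals.

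Among the other 7 miRNAs of a list known to be rich in red cells, miR-16, miR-25 and the probe common to miR-20a and miR-20b met the 2-fold rule upward, and no member of the list met it downward. miR-16 had 2610 and 1506 units in the Tn+ pools, against 176 in the Tn- pool. miR-25 had 1868 and 5513 units in the Tn+ pools, against 104 in the Tn- pool, with Tn+ pool 2 the higher, as for miR-486. The shared probe had 1364 and 515 units in the Tn+ pools, against 50.1 in the Tn- pool, with Tn+ pool 1 the higher, as for miR-451 and miR-144. miR-15b had 226 and 9.32 units in the Tn+ pools, against 6.96 in the Tn- pool, so pool 2 was close to the Tn- value. miR-92a and miR-210 had 7.05 units or less in every pool, and miR-363 was at the floor in all 3. None of the 10 passed limma over all probes, and their median log2 ratio was 3.58. It was -0.02 over all probes, most of them at the floor throughout, but 3.17 over the 58 probes with a mean of 10 units or more. The 2-fold rule was met upward by 6 of the 10, against 12% of all probes and 75.9% of the 58 probes with a mean of 10 units or more. It was met by 3 of 5 myeloid and 3 of 4 lymphocyte probes. Of platelet and endothelium probes 2 of 4 met it, of liver probes 2 of 4 and of epithelium probes 2 of 6, with 1 epithelium probe meeting it downward.

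The markers of other cell types were low beside the 10 probes of the red cell list. Those 10 took 85.2% and 72.4% of the signal in the Tn+ pools, against 54.7% in Tn- serum. Most of this was miR-451 alone (72.4% and 41.2%, against 44.1%), whose share did not separate the groups. In Tn+ pool 2 miR-25 added 17.2%. Whether the signal of the listed miRNAs came from red cells was not tested. The 5 myeloid probes summed to 1080 and 593 units in Tn+ serum, against 292 in Tn- serum, but as a share this was 1.82% and 1.85%, against 6.96%. Most of the Tn- sum was miR-142-5p (150 units) and miR-223 (136 units), so the lower share does not describe every member. miR-21 had 182 and 149 units in Tn+ serum, against 3.73 in Tn- serum. miR-142-3p (33.9 and 14.8 units in Tn+ serum) and miR-146a (21.4 and 3.88 units) had the floor value in Tn- serum. The 4 lymphocyte probes took 0.745% and 0.441% of the signal in Tn+ serum, against 0.653% in Tn- serum. The share was lower in both Tn+ pools for platelet and endothelium markers (0.133% and 0.166%, against 0.320%) and for epithelium markers (0.0681% and 0.126%, against 0.306%). These sums include floor values, which weigh more in the small Tn- total. miR-199a-3p (10.2 units) was the 1 platelet and endothelium probe above the floor in Tn- serum. There miR-126-3p (42.9 and 35.4 units in Tn+ serum) and miR-191 (23.2 and 14.8 units) had the floor value. Of the 6 epithelium probes, 2 lay above the floor in Tn- serum, miR-200b (5.89 units) and miR-205 (2.65 units). For liver markers it was 0.470% and 0.235%, against 0.268% in the Tn- pool. The part of these cells in the red cell miRNA levels was not tested.

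The probes most like each member were found by their ratios between pools. For miR-451, among the 59 other probes measured above the floor throughout, these were miR-19a, miR-148a and miR-30c, with ratios to the Tn- pool within 0.18, 0.30 and 0.44 log2 units of those of miR-451 in both Tn+ pools. miR-19a had 93.9 and 30.0 units in the Tn+ pools, against 3.73 in the Tn- pool. miR-486 came 14th in that order, at a distance of 1.70. For miR-486 the closest were miR-2137, miR-27a and miR-205, at 0.46, 0.89 and 1.02. miR-2137 had 227 and 867 units in the Tn+ pools, against 27.4 in the Tn- pool. For miR-144 the candidates were the other 9 probes at the floor in the Tn- pool with 20 units or more in both Tn+ pools. Those nearest in the ratio between the Tn+ pools were miR-122, miR-106b and miR-93, at 0.40, 0.42 and 0.63 log2 units. The Tn- values of miR-30c (1.58 units) and miR-205 (2.65 units) were under 3 grid steps, so their places are uncertain. These orders describe 3 pools and were not tested.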

How the data were processed

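Per the labels' protocols, RNA from 200 µL of pooled serum was eluted in 20 µL, of which roughly 30 ng of RNA entered a hybridization of 16.5 h. The deposited values are a normalized signal per probe, which the authors obtained from NanoString's nCounter Advanced Analysis Software (named in the series' design). The submitters' processing notes name R 4.4. How the scaling probes, background and floor were set is not given in the sources used. Both deposited tables agree in 1698 of 1698 values. Whole counts could not be recovered, because any background removed is unknown, so no count model was used. Pools were grouped by title.

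Log2(signal + 1) of all 566 probes was fitted with limma 3.58.1 in R 4.3.3 (lmFit and eBayes, 1 residual degree of freedom, no covariate, Benjamini-Hochberg adjustment, threshold 0.05). On this scale the changes of low miRNAs are understated. The script was also run on simulated data with little noise and only probes averaging at least 10 units, so that run does not gauge the calls made here. Shares, ratios and likeness were computed in Python 3.11.15, and hairpins were folded with RNAfold. The members, lists and tests were chosen with earlier results of these data known. Named miRNAs were the members, the red cell list, miR-23a, the highest other probe of each pool, and the 3 probes most like each member. Alternatives changed the pseudocount (0.1 or 10), probe filter, pool scaling, floor (3 grid steps), share and pools used.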

Additional observations from a re-analysis of the deposited data

How the results depend on the processing

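The log2 ratios of the 3 members stayed positive under every alternative run, and with pseudocounts of 0.1 and 10 their limma calls did not change, although the log2 ratio of miR-144 was 7.92 and 4.75. Leaving out either Tn+ pool gave values without a test, since no residual degree of freedom is left: 2.83 to 4.53 for miR-451, 6.37 to 7.84 for miR-144 and 3.41 to 4.51 for miR-486. The limma threshold was passed at unchanged log2 ratios of 3.68 for miR-451, 7.11 for miR-144 and 3.96 for miR-486 over the 259 probes above the floor in some pool. It was passed again over the 58 probes averaging at least 10 units (limma adjusted p = 0.0237, 1.13e-04 and 0.0163). miR-144 passes both filters through its Tn+ signal alone. Of the 259 probes 11.2% were called higher, and of the 58 probes 55.2%, so a call there does not set the members apart. In each of these fits the SE was 1 value shared by all probes (1.15 and 1.34), so it did not measure the spread of the single miRNA. The threshold was also passed with floor values at 3 grid steps (3.68, 6.08 and 3.96, limma adjusted p = 9.38e-07, 8.16e-17 and 8.55e-08). That fit called 43 of 566 probes, all of them higher. It again used 1 SE for all probes (0.648), with many probes held at constant floor values. miR-144 also passed in limma with equal totals (4.43, adjusted p = 2.06e-07) and with 100 highest probes scaling (5.11, adjusted p = 1.10e-10). In those 2 fits 463 and 369 of 566 probes passed, 9 and 19 of them higher, as the tied floor values are scaled apart. Their SE was likewise 1 value shared by all probes (0.707 and 0.678). When scaling was combined, after seeing the data, with the filter on a mean of 10 or more, miR-144 passed with equal totals without miR-451 (4.84, adjusted p = 0.0334) and in no other scaling (adjusted p = 0.0830 to 0.345), and miR-451 and miR-486 passed in none. The filtered fit that miR-144 passed called 1.72% of its 58 probes, and its SE was again 1 value shared by all of them (1.33). The number of members meeting the 2-fold rule in both Tn+ pools was 1 with equal totals, with or without miR-451, and with 100 highest probes scaling.

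The Tn+ mean minus the Tn- value was 12.6 percentage points for the share of miR-451 (-3.00 to 28.3 with 1 Tn+ pool left out) and 2.09 for that of miR-486 (-0.56 to 4.75), so each sign rests on 1 pool. It was 0.644 for that of miR-144 (0.510 to 0.777), and 1.86 with miR-451 left out of the total. For the ratio of miR-144 to miR-451 it was 1.15 (1.05 to 1.24), and 0.661 with 10 units added. For the ratio of miR-486 to miR-451 it was 4.54 (-2.85 to 11.9). No paired analysis was possible because nothing in the labels pairs a Tn+ pool with the Tn- pool. The Tn- pool has no replicate, and its 85 probes above the floor limit what can be compared.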
